A study of Mus musculus with 3 samples.

Results

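Growth hormone, made by the pituitary, acts through the receptor GHR, and in many tissues it raises the production of insulin-like growth factor 1 (IGF1). IGF1 and its relative IGF2 drive growth through the receptor tyrosine kinase IGF1R, which signals through adaptors such as IRS1, while IGF2R takes up IGF2 and delivers it for breakdown. The binding proteins IGFBP2 to IGFBP5 hold the ligands outside the cell and set how much of them reaches a receptor. In the fetal lung, IGF signalling is known for its part in growth and maturation of both mesenchyme and epithelium.

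The genes examined here were Ghr, Igf1, Igf2, Igf1r, Igf2r, Igfbp2, Igfbp3, Igfbp4, Igfbp5 and Irs1, 10 of 21631 protein-coding genes. TBX5, a T-box transcription factor of heart, forelimb and lung mesenchyme, was located on chromatin by immunoprecipitation followed by sequencing (ChIP-seq). By the titles the tissue was lung, taken here as whole lung of embryos of CD-1, an outbred mouse stock, at E14.5. No treatment or mutant allele was named in the labels. The series held 2 ChIP libraries, each taken here as from 1 whole lung, and 1 input library. All 3 titles said lung, but the source field of the second ChIP library and of the input said heart. All that was used of the libraries is 1 set of 28381 called peaks. It gives no separate values for the libraries, so no spread between lungs, no depth and no test could be had, and the labelled tissue could not be checked against expression markers. Whole lung holds many cell types, so the cells in which TBX5 was bound cannot be told apart.

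A peak was given to a member if its summit lay inside the gene, or if the nearest end of any protein-coding gene was the member's and lay within 100 kb. This gave 69 of the 28381 peaks, each with a member as its nearest coding gene. Ghr was chosen by the −log10 q of its strongest peak, the highest value in the list, and the peaks of all members by position, so these values are a description of the list. The highest value was 429 and the next highest, elsewhere in the genome, was 354. At the distance limit, the farthest peak kept lay 95.5 kb from Irs1 (5.18-fold), and the nearest one left out lay 108 kb from the same gene (7.07-fold). Fold, as given by the authors' peak caller, sets the signal at a summit against the local background. Peaks with a −log10 q of at least 21.35, that of the 5000th peak, are called strong, and with ties there were 5032 of them. The strong axis peak with the lowest −log10 q had 22.3, and the axis peak just under the limit, in Igf2r, had 21.33.

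All 10 members had a peak, where 41.7% of protein-coding genes had one, and 7 of 10 had a strong peak, where 12.0% of genes had one. Members covered longer stretches of sequence than most genes: the median stretch in which a peak would be given to the gene was 118 kb for members and 48.8 kb for all genes. Of the 69 peaks, 19 (27.5%) were strong, against 17.7% of the whole list. Without Ghr, 12 of 53 (22.6%) were strong, and 6 members had a strong peak. The median fold of the 69 was 6.61, and that of the list 6.27. The members were chosen with earlier results of these data known, so these shares only describe the list. No test was made of these differences.

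**Figure D1:**
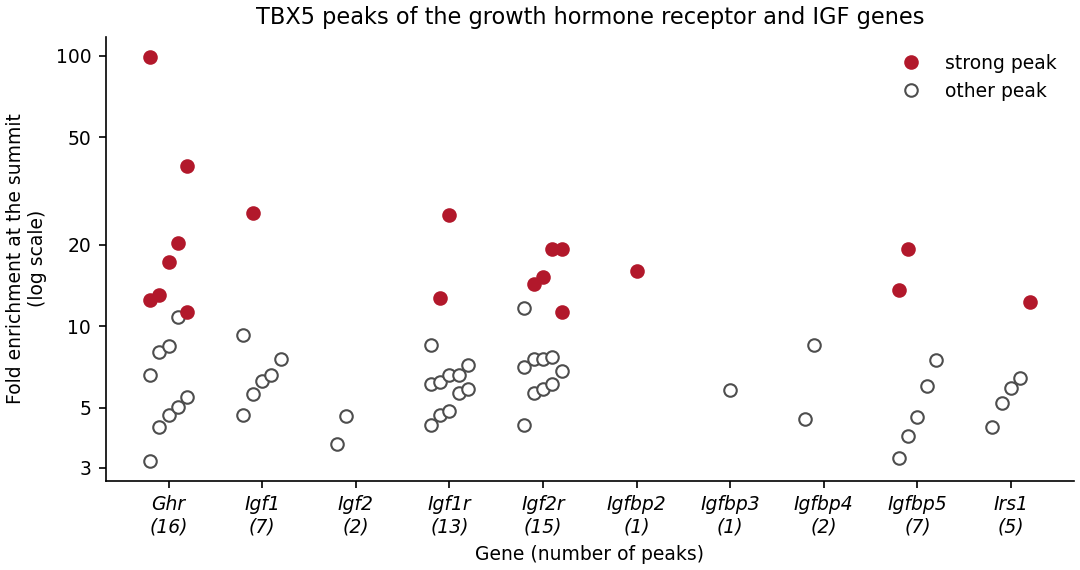
Fold enrichment at the summit (log scale) of each of the 69 peaks, by gene, with strong peaks in filled red. Ghr reached 98.98-fold, Igf1, Igf1r, Igf2r and Igfbp5 reached 19.2 to 26.3-fold, and Igf2, Igfbp3 and Igfbp4 had no strong peak.

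Start sites came from a RefSeq table of promoter windows (GRCm38.p6, the assembly of build mm10), which listed 15 starts for the 10 members. Each window runs from 250 bases before to 50 bases from a start. A peak overlapped 8 of the 15 windows, in 7 of the 10 members, whereas 17.6% of the 21045 windows of protein-coding genes, and 19.1% of the genes with a window, were overlapped. The bases before the 8 overlapped starts are shown because they are the member promoters at which a TBX5 peak was called. They are RefSeq's reference sequence, 250 bases before the start, written 5′ to 3′ on the gene's strand. Capitals mark matches on either strand to AGGTGT, the T-box half-site, or to letters of 4 other factor families: AGATAA for GATA factors, TGTTTAC for forkhead factors, GGAATG for TEAD factors and AAGTG for NKX2 factors. A match on the opposite strand reads as the reverse complement.

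Ghr, start 1, chr15:3583353-3583602, minus strand: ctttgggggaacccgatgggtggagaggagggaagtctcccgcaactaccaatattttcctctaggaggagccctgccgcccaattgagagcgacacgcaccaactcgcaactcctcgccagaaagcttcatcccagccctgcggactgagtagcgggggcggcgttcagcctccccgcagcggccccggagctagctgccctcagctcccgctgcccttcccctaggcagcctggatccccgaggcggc
Ghr, start 2, chr15:3581843-3582092, minus strand: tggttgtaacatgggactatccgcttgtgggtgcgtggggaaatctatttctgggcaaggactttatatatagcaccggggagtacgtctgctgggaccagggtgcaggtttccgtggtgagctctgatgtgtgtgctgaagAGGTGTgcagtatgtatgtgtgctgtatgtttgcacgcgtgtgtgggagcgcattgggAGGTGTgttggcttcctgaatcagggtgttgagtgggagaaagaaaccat
Igf1r, chr7:67952007-67952256, plus strand: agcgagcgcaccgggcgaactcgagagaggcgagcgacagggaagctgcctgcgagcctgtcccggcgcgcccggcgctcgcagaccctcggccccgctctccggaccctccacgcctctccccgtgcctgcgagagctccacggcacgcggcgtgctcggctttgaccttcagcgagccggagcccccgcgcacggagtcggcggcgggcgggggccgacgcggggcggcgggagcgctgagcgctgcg
Igf2, start 3, chr7:142658805-142659054, minus strand: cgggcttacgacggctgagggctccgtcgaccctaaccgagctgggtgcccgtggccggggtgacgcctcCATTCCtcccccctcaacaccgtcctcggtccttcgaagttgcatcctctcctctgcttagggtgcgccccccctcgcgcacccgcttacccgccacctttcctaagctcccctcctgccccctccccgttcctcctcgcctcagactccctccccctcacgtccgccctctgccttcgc
Igf2r, chr17:12769707-12769956, minus strand: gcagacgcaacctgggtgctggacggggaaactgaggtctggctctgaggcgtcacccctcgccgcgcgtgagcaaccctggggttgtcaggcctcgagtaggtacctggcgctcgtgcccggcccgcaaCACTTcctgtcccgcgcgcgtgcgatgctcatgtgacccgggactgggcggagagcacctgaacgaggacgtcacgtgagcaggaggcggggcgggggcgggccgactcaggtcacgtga
Igfbp4, chr11:99040994-99041243, plus strand: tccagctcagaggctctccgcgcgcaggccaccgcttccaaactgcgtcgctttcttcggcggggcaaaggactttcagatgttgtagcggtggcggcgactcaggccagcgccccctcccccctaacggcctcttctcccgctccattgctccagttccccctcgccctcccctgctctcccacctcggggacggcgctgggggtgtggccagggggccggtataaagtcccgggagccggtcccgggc
Igfbp5, chr1:72874866-72875115, minus strand: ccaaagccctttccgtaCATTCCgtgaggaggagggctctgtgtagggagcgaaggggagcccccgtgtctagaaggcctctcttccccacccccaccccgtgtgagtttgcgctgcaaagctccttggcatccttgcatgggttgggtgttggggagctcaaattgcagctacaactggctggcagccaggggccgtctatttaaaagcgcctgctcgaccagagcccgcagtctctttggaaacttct
Irs1, chr1:82291440-82291689, minus strand: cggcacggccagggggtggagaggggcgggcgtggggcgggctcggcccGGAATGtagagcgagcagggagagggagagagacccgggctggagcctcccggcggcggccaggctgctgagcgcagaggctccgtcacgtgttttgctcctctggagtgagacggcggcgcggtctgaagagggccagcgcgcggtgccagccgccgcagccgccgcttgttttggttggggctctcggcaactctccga

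The letters AGGTGT were found in 1 of the 15 member windows, at the second start of Ghr, where they stood 2 times, 108 and 50 bases before the start. Neither match lay in a peak. Over all windows 12.8% held AGGTGT, and 11.2% of the 3697 windows overlapped by a peak did. A count of 1 in 15 windows is too small to place the members above, below or near these shares. GGAATG was in 5 of 15 windows (13.5% of all), those of Igf2 (starts 2, 3 and 4), Igfbp5 and Irs1. The matches at Igf2 (start 3), Igfbp5 and Irs1 were inside peaks. AAGTG was in 4 (45.2% of all), those of Igf2 (starts 1, 2 and 3) and Igf2r, and only the Igf2r match was inside a peak. AGATAA (9.68%) and TGTTTAC (3.03%) were in 0. A missing match says only that these letters were not in the window. The overlapped member windows were rich in G and C, with a median of 69.0% in the 250 bases against 56.4% in the 7 others. Over all genes these medians were 64.0% for overlapped windows and 55.6% for all windows. The medians therefore moved with the overlap, but single member windows varied widely. Those overlapped had 52 to 77.6%, and the others 47.6 to 73.2%. The part of base composition in the calls was not tested.

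Ghr encodes the growth hormone receptor and spans chr15:3317755-3583352 on the minus strand. It had 16 peaks, 7 of them strong, and 0.509% of protein-coding genes had at least as many. Its stretch of 372.7 kb was long, and 10.8% of genes reached its density of 4.29 peaks per 100 kb. Its strongest peak, chr15:3580017-3581049, was 1033 bp wide and had 98.98-fold enrichment. The summit lay inside the gene, 1.35 kb downstream of the second listed start and 2.86 kb downstream of the first. Between these 2 starts, which are 1510 bp apart, stood a further strong peak of 17.3-fold (chr15:3582420-3582886). A peak of 5.49-fold reached into the window of the second start but covered only 10% of it. Peaks of 5.02 and 3.19-fold flanked the first start, with summits 64 bp downstream and 85 bp upstream of it. The start region of Ghr thus carried 5 peaks, and the one with the highest value lay downstream of both starts, outside both windows.

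**Figure D2:**
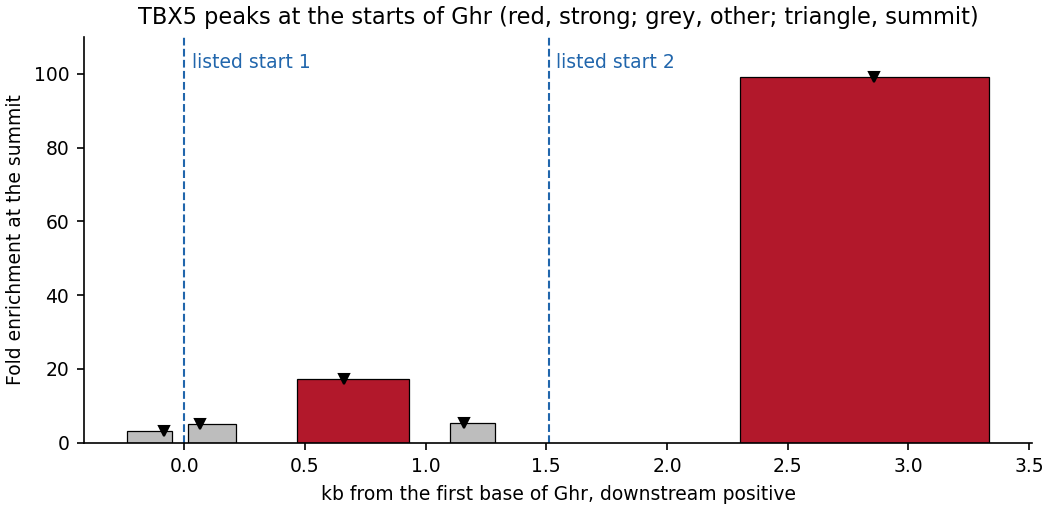
Peaks at the listed starts of Ghr. Each bar spans the peak in kb from the first base of the gene, with downstream positive, and its height is the fold at the summit (triangle). The 98.98-fold peak lies downstream of both starts (dashed lines), and the 17.3-fold peak lies between them.

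Farther into Ghr, 8 more peaks lay inside the gene, from 71.5 to 202 kb downstream of its first base. The highest of these, chr15:3381392-3381936, had 39.1-fold enrichment and a −log10 q of 116, and stood 63.9 kb before the last base. It closed a run of 4 peaks within 14.7 kb, in which the others had 10.8, 6.60 and 13.1-fold. The remaining peaks inside the gene had 20.3-fold at 71.5 kb (chr15:3511570-3512643), 8.48 and 12.5-fold at 130 and 131 kb, and 11.3-fold at 150 kb. Outside the gene were weak peaks of 4.71 and 4.24-fold, 9.12 and 16.9 kb before the first base, and 1 of 8.01-fold beyond the last base. This last peak and those of 10.8 and 39.1-fold lay inside the annotated noncoding gene Gm41254 as well. The next coding gene, Ccdc152, was 78.1 kb or more from every strong peak of Ghr, and from the strongest it was 277 kb away.

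Igf1, the ligand that growth hormone induces, spans chr10:87858265-87937047 on the plus strand and had 7 peaks. The strong one, chr10:87871999-87872564, had 26.3-fold enrichment and a −log10 q of 78.1, and lay inside the gene 14.1 kb downstream of its first base. The peak with the next highest value, of 9.25-fold, had its summit 842 bp downstream of the first annotated base and 2004 bp before the start that the RefSeq table lists. That summit and a peak of 7.54-fold, 3.29 kb before the first base, also lay inside the noncoding gene Igf1os. The other 4 peaks had 4.70 to 6.61-fold, with 3 inside the gene and 1 beyond its last base, 49.3 kb away. The listed promoter window of Igf1 held no peak.

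Igf2, the main fetal IGF ligand and an imprinted gene expressed from the paternal copy, spans chr7:142650768-142666816 on the minus strand. It had 2 peaks, neither strong: 4.67-fold at chr7:142659345-142659712 and 3.66-fold at chr7:142658821-142659022. Both summits lay upstream of start 3 of its 4 listed starts, by 666 and 125 bp, and the second peak covered 67.3% of that start's window. The other 3 windows of Igf2 held no peak. Among the ends of genes of every type, that of Igf2os was the nearest to both summits, at 0.21 kb (4.67-fold) and 0.751 kb (3.66-fold). Igf2 therefore had peaks only near 1 internal start, and both peaks were below the median fold of the list.

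Igf1r encodes the receptor for both ligands and spans chr7:67952257-68233668 on the plus strand. It had 13 peaks, 2 of them strong. The count was 8 when only peaks within 100 kb of a gene end were taken, and 4 in the upper 50% of the list by −log10 q. The higher strong peak, chr7:68100413-68100803, had 25.9-fold enrichment and a −log10 q of 76.4, and lay 148 kb into the gene. The lower strong peak, of 12.7-fold, had its summit 122 bp beyond the last base (chr7:68233616-68233961) and 1.73 kb from the coding gene Pgpep1l. A peak of 7.17-fold covered the whole promoter window, with its summit 318 bp before the start, and 1 of 4.88-fold stood 1.35 kb before it. The remaining 9 peaks had 4.31 to 8.52-fold, of which 7 lay inside the gene and 2 stood 41.1 and 41.7 kb before it. The peak over the promoter of this receptor was thus of ordinary fold (list median 6.27) but wide, at 961 bp against a list median of 291 bp. The high peaks of Igf1r were remote from the promoter.

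Igf2r, also imprinted, is expressed from the maternal copy, and the long noncoding RNA Airn, which starts inside Igf2r on the opposite strand, silences the paternal copy in cis. Igf2r spans chr17:12682406-12769706 on the minus strand and had 15 peaks, 5 of them strong. Before its first base stood 9 peaks. The highest of them were 19.2-fold at chr17:12790284-12791179, 19.3-fold at chr17:12801878-12802381 and 14.4-fold at chr17:12799481-12799817, with summits 21.1, 32.4 and 29.9 kb before the gene. They belonged to a run of 8 peaks within 21.3 kb, the longest run of the axis, whose other members had 5.65 to 7.54-fold. The ninth, of 6.13-fold, had its summit 101 bp before the start and covered 73.7% of the promoter window. Inside the gene lay strong peaks of 15.2-fold (chr17:12706642-12706986) and 11.3-fold (chr17:12725407-12725700), with 11.7, 7.71, 5.88 and 4.31-fold at the rest.

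Airn spans chr17:12741311-12859884, and 10 of the 15 Igf2r peaks, 3 of them strong, lay inside it. The summit nearest to the listed start of Airn was 15.8 kb away. Peaks before Igf2r were nearest to Igf2r among coding genes, but the strong ones were also within 36.7 to 48.0 kb of Mas1. With genes of every type, the 19.3 and 14.4-fold peaks were nearer to Gm16574, at 16.6 and 19.1 kb, than to Igf2r. Which gene a peak acts on was not measured, and neither were the parental alleles.

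**Figure D3:**
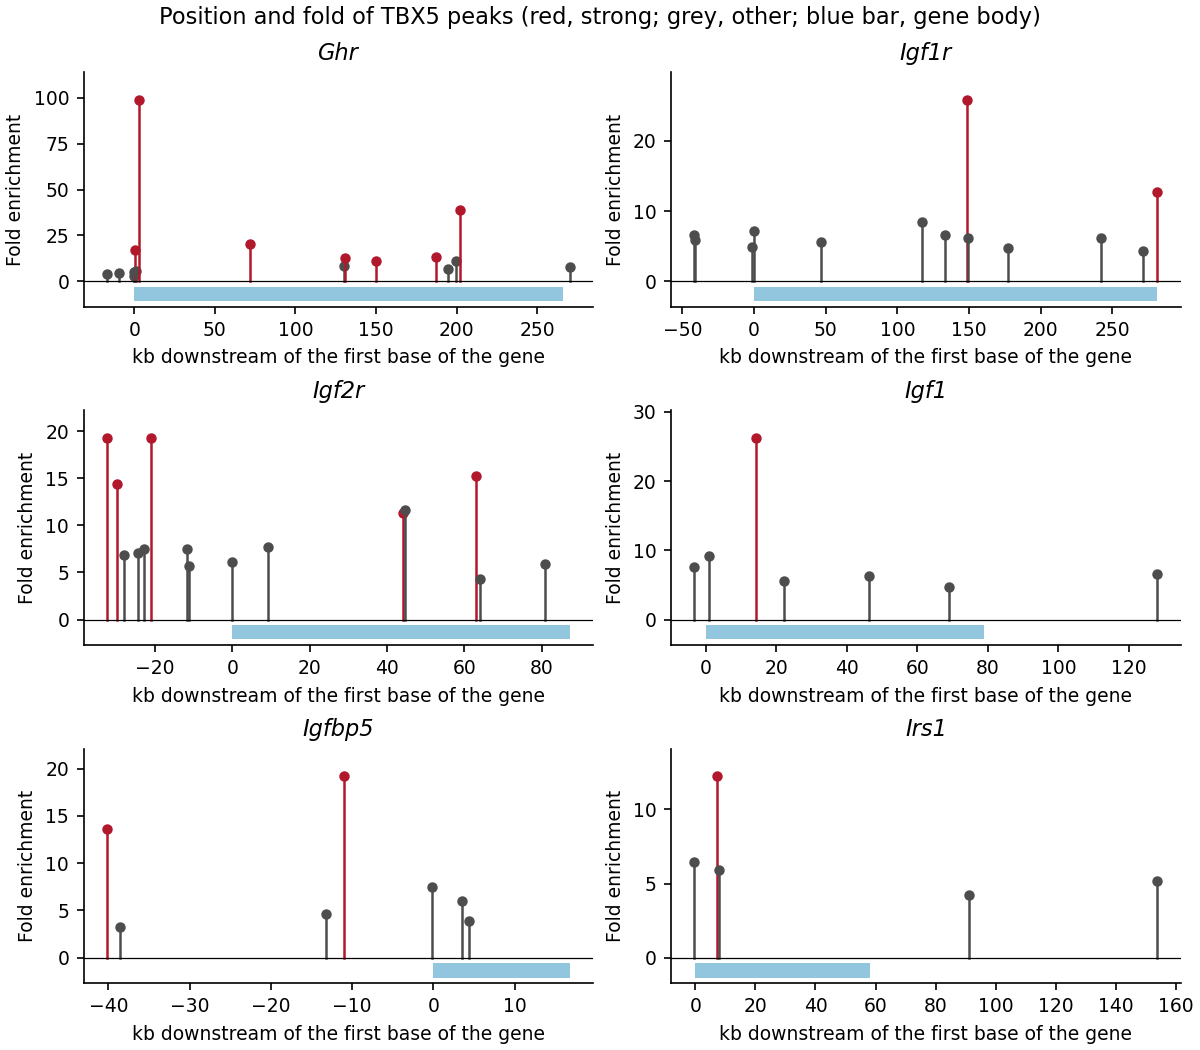
Fold enrichment of each peak against the distance of its summit from the first base of the gene, in kb, for 6 members. The highest peaks lie just inside Ghr (98.98-fold), inside Igf1 (26.3-fold), Igf1r (25.9-fold) and Irs1 (12.3-fold), and before Igfbp5 (19.2-fold) and Igf2r (19.3-fold).

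Of the binding protein genes, Igfbp5 carried the most peaks. It spans chr1:72858065-72874865 on the minus strand and had 7 peaks, 2 of them strong. The stronger, chr1:72885499-72886157, had 19.2-fold enrichment 11.1 kb before the first base, with the same fold and −log10 q (58.3) as the strongest Igf2r peak, so that these 2 cannot be ranked. The other strong peak, chr1:72914900-72915156, had 13.7-fold at 40.2 kb before the gene. Each of the strong peaks had a weak neighbour, of 4.60 and 3.26-fold, within 2.14 kb. At the start itself a peak of 7.50-fold covered 80.7% of the promoter window, and 2 peaks inside the gene had 6.01 and 3.92-fold.

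Igfbp2 is the neighbour of Igfbp5, with 5.59 kb between the 2 genes, and spans chr1:72824480-72852474. It had 1 peak, a strong one of 16.0-fold at chr1:72784025-72784441, 40.2 kb before its first base, and none at either of its listed starts. That peak lay inside the noncoding gene Gm30847, and with genes of every type considered it was nearest to Gm30788. Igfbp4 (chr11:99040005-99052655) had 2 peaks inside the gene, of 8.53-fold (chr11:99047125-99047686) and of 4.55-fold, the latter 56 bp before the listed start and over 76.3% of its window. The first had a −log10 q of 20.7, just under the limit for a strong peak. Igfbp3 (chr11:7206086-7215498) had 1 peak of 5.80-fold, 57.2 kb before the gene (chr11:7272586-7272791). The binding protein genes thus ranged from 1 remote peak to a promoter peak with several upstream.

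Irs1, the adaptor that couples IGF1R and the insulin receptor to PI3-kinase, spans chr1:82233105-82291439 on the minus strand and had 5 peaks. A peak of 6.42-fold and 905 bp covered its whole promoter window, with the summit 295 bp before the start. Its strong peak, chr1:82284219-82284485, had 12.3-fold enrichment 7.11 kb into the gene and stood 770 bp from another of 5.90-fold. The other 2 lay 32.9 and 95.5 kb beyond the last base, with 4.24 and 5.18-fold.

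Per length of the stretch belonging to each gene, Igf2r had the densest peaks of the 10, at 12.0 per 100 kb, a density that 1.97% of protein-coding genes reached. Igfbp5 had 7.80, Igfbp4 7.39, Ghr 4.29, Igf1r 3.43, Irs1 2.93, Igf1 2.74 and Igf2 2.60 per 100 kb. Igfbp2 (1.16) and Igfbp3 (0.899) were below 1.29, the density over all genes pooled. The median gene had a density of 0, and 32.6% and 35.4% of genes reached those of Igfbp2 and Igfbp3. The count of Igfbp4 rests on 2 peaks in 27.1 kb, and those of Igfbp2 and Igfbp3 on 1 each. Ghr had the most peaks, but Igf2r, Igfbp5 and Igfbp4 were denser.

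**Figure D4:**
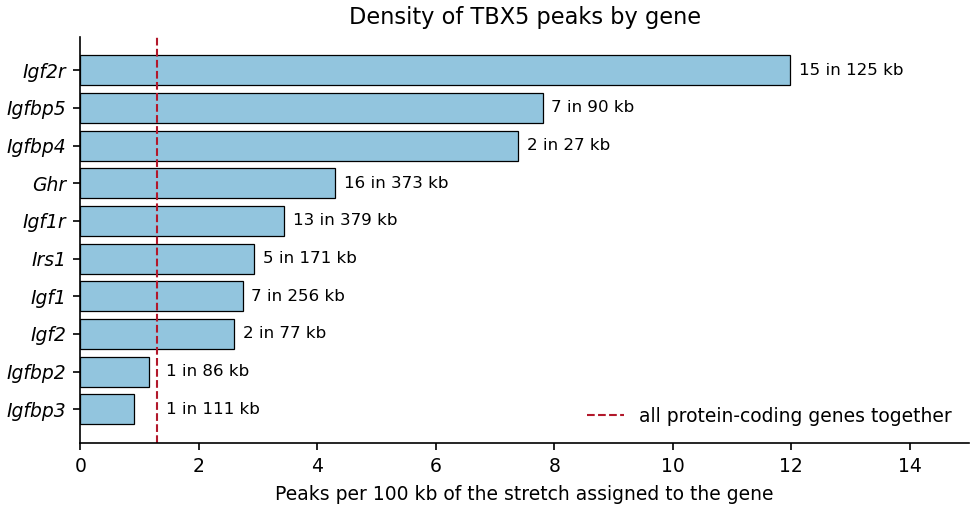
Peaks per 100 kb of the stretch belonging to each gene, with the number of peaks and the length of the stretch beside each bar. Igf2r stands highest at 12.0, and the dashed line marks 1.29 for all protein-coding genes pooled.

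By position, 39 of the 69 peaks lay inside a member, 25 before its first base and 5 beyond its last base. Of the strong peaks, 12 lay inside, 6 before and 1 beyond. Within 1 kb of a listed start were 11 peaks, of which 1 was strong, the 17.3-fold peak of Ghr. Start peaks of the other members had 3.66 to 7.50-fold. Of all axis peaks 13.0% had a summit within 1 kb of a gene end, against 17.6% of the list, and 52.2% lay inside a gene and farther from its ends, against 41.4%. Another summit stood within 10 kb of 51 of the 69 peaks (73.9%), against 50.1% of the list. These 51 formed 18 runs, in 8 of the 10 members, with Igfbp2 and Igfbp3 having none. Peaks of 1 gene share their locus and are not replicates of each other.

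The wider pathway was described with 58 other genes of growth hormone, IGF and insulin signalling, also chosen with earlier results known. Of these, 47 had a peak (81.0%) and 19 a strong peak (32.8%). The shares over all protein-coding genes were 41.7% and 12.0%, for a median stretch of 105 kb in the list and 48.8 kb in all genes. Between receptor and nucleus, the growth hormone signal runs through JAK2 and STAT5 and is damped by SOCS proteins and CISH. Jak2 and Stat5a had 0 peaks, Stat5b had 2 and Cish 1, none of them strong. The feedback inhibitors Socs2 and Socs3 had 7 peaks each, 2 of them strong in each gene, and their highest peaks lay inside the genes, with 15.9-fold in Socs2 and a −log10 q of 47.3 in Socs3. Socs1 had 1 peak of 7.56-fold. The prolactin receptor gene Prlr had a strong peak of 15.6-fold, and Gh itself had 0 peaks.

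Among genes for other binding proteins and their regulators, 7 of 10 had a peak and 2 a strong one. Pappa, a protease that cleaves IGF binding proteins, had 9 peaks and 2 were strong, the higher with 23.2-fold inside the gene (chr4:65182733-65183472). Igfbpl1 had a strong peak of 11.7-fold, while Igfbp1, Igfbp6 and Igfals had 0 peaks. The insulin receptor gene Insr had a strong peak of 14.2-fold, 0.079 kb from a gene end, and Ins1 one of 20.7-fold at 55.9 kb outside the gene. Ins2, next to Igf2, and Insrr had 0.

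Adaptor genes had a peak in 8 of 9 cases and a strong peak in 3. Sos2, which activates RAS, held the peak with the highest −log10 q of the 58 genes (96.0, with 33.9-fold) at chr12:69666595-69667133, inside the gene. Grb10, an imprinted inhibitor of IGF1R and insulin receptor signalling, had 2 strong peaks among 4, up to 18.0-fold. Gab1 had 1 strong peak of 9.27-fold, 42.3 kb outside the gene. Irs2 had 8 peaks, none strong, where the related Irs1 had 5.

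In the PI3-kinase, AKT and mTOR branch, 17 of 19 genes had a peak and 7 a strong one. Akt1 had 4 peaks in 25.3 kb and 2 were strong, the higher with 23.0-fold. Akt2 had a strong peak of 10.1-fold. The phosphatase gene Ptpn1 had 11 peaks including 3 strong ones, the highest with 16.2-fold and 52.3 kb outside the gene. The mTOR inhibitors Tsc1 and Tsc2 had strong peaks of 10.5 and 21.6-fold, the latter 10.9 kb outside Tsc2. Pik3ca, a catalytic subunit of PI3-kinase, had a strong peak of 12.2-fold, 0.122 kb from a gene end. Pik3r1, a regulatory subunit, had 9 peaks, none strong. All 5 genes named for regulating Igf2 had a peak. Of these, Hmga2, a chromatin protein of growing tissue, had 10 with 3 strong, up to 20.3-fold, and Igf2bp3, which binds Igf2 RNA, had a strong peak of 16.6-fold, 0.036 kb from a gene end.

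**Figure D5:**
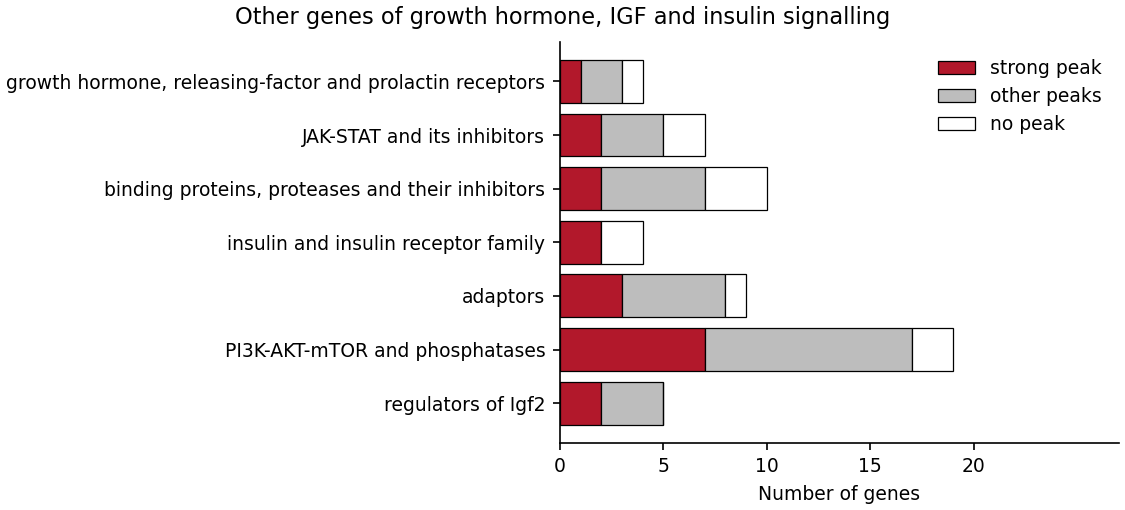
Number of genes with a strong peak, with other peaks only and with no peak, for 58 other pathway genes by role. Strong peaks were found in each of the 7 roles, in 19 genes in all, and 11 genes had no peak.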

How the data were processed

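TBX5 ChIP-seq and input libraries are represented by 1 list of peaks with no header, in the layout that MACS2 writes. Per the submitters' processing notes, the tools were Bowtie2, SAMtools and MACS2 and the build mm10. Not given in the sources used here are versions, settings, the role of the input and any merging of libraries. The authors' caller gave each peak a fold (a ratio to local background). Ranks use the deposited −log10 q of each peak. A score, also deposited, is about 10 times the −log10 q and was not used. Summits were taken as the start plus the deposited offset, and positions are 1-based. Fold and −log10 q describe peaks within this list only.

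Genes (21631 protein-coding) and promoter sequences came from RefSeq, GRCm38.p6, and all 10 member and 58 pathway symbols matched. No genome was used, so letters were searched in promoter windows only. No test was run across genes. The assignment was tested on simulated data with Python 3.11.15 and pandas 2.3.3. Members, lists and rules were chosen with earlier results of these data known. Named were all members, the pathway genes with a strong peak except 1 that is not reported here, and, chosen after their values were seen, further pathway genes with weak or no peaks.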

Additional observations from a re-analysis of the deposited data

How the results depend on the processing

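Limits of 50 kb and 1 Mb, nearest ends over all annotated genes, any overlap with the gene body, nearest ends only and leaving out Ghr gave 53 to 82 axis peaks, against 69. Keeping only the upper 50% of the list by −log10 q left 38, with 10 of Ghr, 4 of Igf1r, 3 of Igfbp5, 3 of Irs1, 1 of Igfbp4, 0 of Igf2 and 0 of Igfbp3. With nearest ends only, Igf1r had 8, and at 50 kb Igfbp3 had 0. With the 1000 highest peaks as strong, 4 axis peaks, 3 members and 4 other pathway genes remained, against 19, 7 and 19, and with the 10000 highest the other pathway genes with such a peak numbered 32. Without Ghr, 12 strong axis peaks were left. Under the other settings strong axis peaks numbered 15 to 27, members with one 6 to 8, and other pathway genes 17 to 21. Among 60 counts for single members, 47 were within 1.5 times the reported one, 2 were higher (Igfbp3 with 6 and Irs1 with 10 at 1 Mb) and 11 lower. With genes of every type, 59 axis peaks remained, 15 of them strong. Igf2r then had 12 peaks, Igfbp5 had 5, and Ghr, Igf1 and Irs1 had 15, 6 and 4. The peaks of Igfbp2 and Igfbp3 went to the noncoding genes Gm30788 and Gm36565. With gene ends of 500 bp or 2 kb, 10.1 or 17.4% of axis peaks lay at gene ends, 55.1 or 49.3% inside genes and 34.8 or 33.3% outside. Leaving out Ghr, and the distance and gene-type settings for strong peaks, were chosen after seeing the data. The T-box search around summits, planned for a genome of build mm10, was not run. Depth is unknown, so weak and missing peaks cannot be told from shallow sequencing. No paired analysis was possible because the list has no value per library.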

Other observations

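The H19 noncoding gene shares an imprinted domain with Igf2, from which it lies 72.6 kb away, and by the rule used its peaks were given to Mrpl23, the nearest coding gene. A peak of 9.41-fold (chr7:142577958-142578462) had its summit 132 bp beyond the end of H19 that faces Igf2, and 1 of 5.08-fold lay inside H19. Weaker peaks of 3.17 and 4.89-fold stood 2303 and 10463 bp beyond its other end. None of the 4 was strong, and the highest had a higher fold than either peak of Igf2.

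Beyond 100 kb and up to 1 Mb, a further 13 peaks had a member as the nearest coding gene. Irs1 had 5, of which 1 was strong (19.3-fold, 346 kb away, chr1:81886880-81887706). Ghr had 3, the nearest at 116 kb with 11.8-fold, and Igfbp3 had 5, the nearest at 212 kb with 11.8-fold.

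Many peaks carried identical values. Of the 69 axis peaks, 67 shared both fold and −log10 q with at least 1 other peak of the list, as did 96.0% of all peaks. Ghr's 98.98-fold peak did not.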
